A study of Mus musculus with 7 samples.

Results

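The Ms4a family genes were followed in macrophages sorted from injured mouse nerve. They were chosen by name, as the rows of the quantification table called Ms4a4a, Ms4a4b, Ms4a4c, Ms4a6b, Ms4a6c, Ms4a6d, Ms4a7 and Ms4a8a. Of these 8 genes, 7 were among the 23361 genes of the table. Ms4a4a has no row in the table used here and was not analysed. All 7 passed the expression filter of the test, as did 12858 genes in all.

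The cells came from wild-type BALB/cJ mice, whose left sciatic nerve was cut and repaired at once with an empty conduit. Macrophages (Lin-F4/80+CD14+CD11b+CD16/32+) were sorted by flow cytometry from the regenerative bridge, the tissue that grows inside the conduit, and their polyA+ RNA was sequenced by RNASeq. The groups were day 5 (n = 3 libraries), day 14 (n = 2) and day 28 (n = 2) after repair, with no uninjured group. The paper that reported these data gives n = 3 per group for its RNASeq, so days 14 and 28 have fewer libraries here. The age and sex of these mice are not given in the sources used here, nor is whether a library stems from 1 mouse or a pool. If libraries were not from separate mice, p-values measure only the spread between these samples, which may be technical. The fragments assigned to genes numbered 26167372, 21509710 and 21889611 at day 5, 18027190 and 20822892 at day 14, and 35247116 and 18101976 at day 28.

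Ms4a genes encode small proteins that pass several times through the cell membrane, and most of them lie next to each other in 1 cluster. The best known are Ms4a1, which encodes the B cell antigen CD20, and Ms4a2, which encodes the beta chain of the high-affinity IgE receptor of mast cells. Others are used by monocytes and macrophages, where the proteins sit beside signalling receptors. Ms4a7 has been used as a marker of some macrophages in the brain and its borders.

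The 2 libraries of day 14 differed from each other. Over 7556 genes with a mean FPKM (fragments scaled for transcript length and library size) of at least 5, the root mean square distance on the log2(FPKM + 1) scale from the day 5 mean was 0.331 for day 14 replicate 1 and 0.501 for day 14 replicate 2. Their distance from the day 28 mean was 0.437 and 0.3, so replicate 1 lay closer to day 5 and replicate 2 closer to day 28. The counts of members called in the comparisons with day 14 are therefore given with and without each of them.

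Expression of 6 Ms4a genes fell between days 5 and 28, from day 5 means of 22.4 to 470.2 FPKM to day 28 means of 12.0 to 227 FPKM, beside 7.51% of all genes tested that were called lower. The count rested on the day 28 libraries, at 3 members called without replicate 1, all among the 6, and at 1 without replicate 2, Ms4a4b, which is not among them. Over all genes the calls fell as well, from 1960 to 452 and 1012 in the same fits. The sum of FPKM over the 7 genes was 1386, 1315 and 1122 in the day 5 libraries. It was 1252 in day 14 replicate 1 and 769.5 in day 14 replicate 2, and 623 and 535 at day 28. Day 14 replicate 1 thus stood within the day 5 range and both day 28 libraries below all others. In a bulk sample, fewer cells that express a gene and less RNA per cell cannot be told apart.

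**Figure D1:**
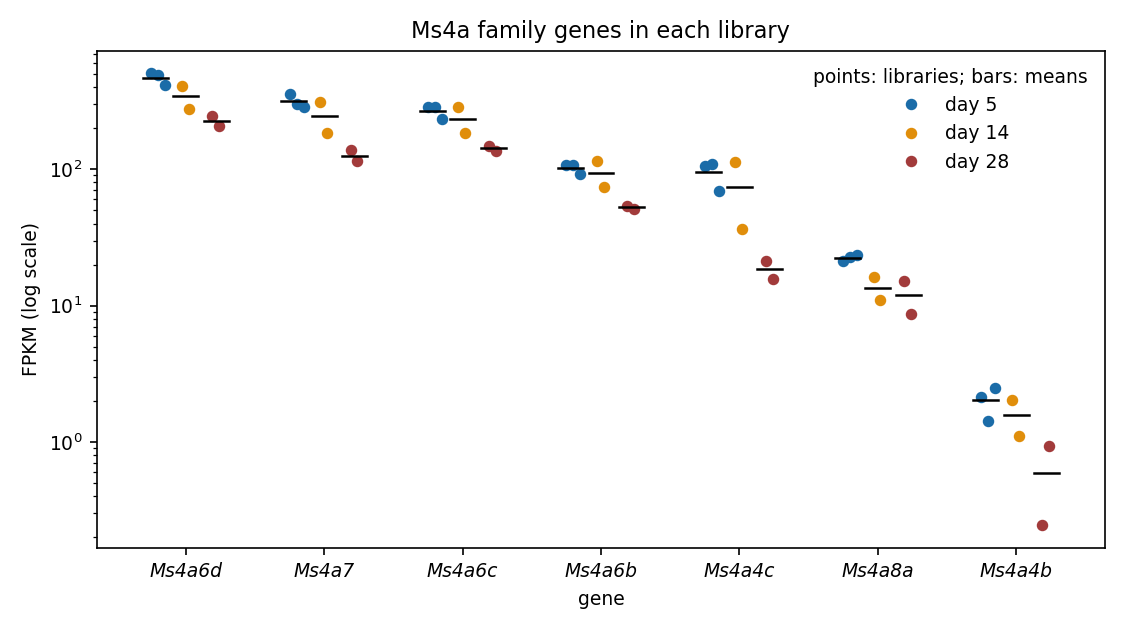
FPKM on a log axis for the 7 Ms4a genes, ordered by their mean over all libraries. Each point is 1 library, coloured by day, and each black bar is the mean of a day. The day 28 libraries lie below all day 5 libraries for each of the 7 genes, and the upper of the 2 day 14 points lies within or above the day 5 range for 5 of them.

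Ms4a6b, Ms4a6c and Ms4a6d are close relatives within the cluster on chromosome 19 (GRCm38, the assembly also called mm10). Ms4a6c (ENSMUSG00000079419, chr19:11469366-11482192) and Ms4a6b (ENSMUSG00000024677, chr19:11516512-11531256) lie on the plus strand, and Ms4a6d (ENSMUSG00000024679, chr19:11586604-11604849) on the minus strand. The promoters of Ms4a6b and Ms4a6c are shown because they share the longest stretch of identical bases of the member pairs aligned. Each run is the RefSeq window of GRCm38.p6 from 250 bases before to 50 bases after the annotated start, on the plus strand, 5′ to 3′. Capitals mark the longest run of identical bases in both windows, of 48 bases.
Ms4a6b, chr19:11518309-11518608: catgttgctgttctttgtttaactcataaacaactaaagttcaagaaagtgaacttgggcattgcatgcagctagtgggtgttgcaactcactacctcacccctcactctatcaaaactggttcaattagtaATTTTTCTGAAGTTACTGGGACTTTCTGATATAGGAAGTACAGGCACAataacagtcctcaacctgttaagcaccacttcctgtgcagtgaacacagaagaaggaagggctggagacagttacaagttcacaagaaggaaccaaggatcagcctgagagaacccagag
Ms4a6c, chr19:11469118-11469417: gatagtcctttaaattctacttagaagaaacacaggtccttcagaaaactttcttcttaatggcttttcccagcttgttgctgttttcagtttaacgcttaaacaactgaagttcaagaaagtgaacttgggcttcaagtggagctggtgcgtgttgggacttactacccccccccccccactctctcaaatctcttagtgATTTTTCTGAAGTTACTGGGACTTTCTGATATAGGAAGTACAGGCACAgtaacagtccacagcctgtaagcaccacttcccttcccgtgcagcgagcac
Over the whole windows the pair had 52.3% identical positions in a global alignment (197 of 377, gaps counted). Between windows of members from different subfamilies the share ran from 47.5% to 53.6%. The run in capitals starts at base 133 of the Ms4a6b window and at base 202 of the Ms4a6c window. Bases at the ends of the windows thus have no counterpart, which lowers the share. It therefore does not show how far the likeness extends.

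Ms4a6d was the most abundant member. Its FPKM was 505, 489 and 416.5 at day 5, 411 and 278 at day 14, and 246 and 207.5 at day 28. The mean went from 470.2 ± 47.2 (SD, n = 3) to 344 ± 94.5 (n = 2) and 227 ± 27.0 (n = 2), and no day 14 or day 28 library reached the lowest of day 5. Between days 5 and 28 it fell by 1.04 on the log2 scale (SE 0.18, edgeR adjusted p = 0.00742, from the quasi-likelihood test and adjusted by Benjamini-Hochberg over all genes tested), a call that ended without day 28 replicate 2 (edgeR adjusted p = 0.0576).

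Ms4a6c was measured at 285.4, 285.5 and 233 FPKM at day 5, 285 and 185 FPKM at day 14, and 149 and 136.5 FPKM at day 28. Day 14 replicate 1 stood at the upper edge of day 5, while the day 28 libraries lay below all the rest. The fall from day 5 to day 28 was 0.84 on the log2 scale (log2 fold change -0.84, SE 0.19, edgeR adjusted p = 0.0181). That call ended without day 5 replicate 1 or 2 (edgeR adjusted p = 0.065 and 0.0605) and without day 28 replicate 1 or 2 (edgeR adjusted p = 0.0888 and 0.0989). Ms4a6b was lower throughout, at 108, 107 and 92.8 FPKM at day 5, 114 and 74.0 FPKM at day 14, and 53.6 and 51.3 FPKM at day 28. Day 14 replicate 1 was above all of day 5, and both day 28 libraries were below all the rest. It fell by 0.95 on the log2 scale from day 5 to day 28 (SE 0.18, edgeR adjusted p = 0.00904), a call that ended without day 28 replicate 1 or 2 (edgeR adjusted p = 0.072 and 0.0597). The ratio of Ms4a6b to Ms4a6c FPKM within a library ran only from 0.359 to 0.401 over all 7 libraries.

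Fragments of Ms4a6c are not fully separable from those of an overlapping gene. Of the stretches of 75 bases in the annotated transcripts of Ms4a6c, 47.7% (943 of 1976) also occurred in a transcript of another gene on either strand, each of them in BE692007, an antisense gene that overlaps Ms4a6c and has no row in the table used here. Whether strand was used in counting is not given in the sources used here. Fragments from the shared stretches thus cannot be assigned to 1 gene of that pair. Only 0.63% of the stretches of Ms4a6b and 0.41% of those of Ms4a6d were shared with another gene. Other antisense genes overlap Ms4a6b (Gm19261) and Ms4a4c (Gm5692).

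Ms4a4b and Ms4a4c lie side by side on the plus strand, Ms4a4c (ENSMUSG00000024675) at chr19:11404770-11427246 and Ms4a4b (ENSMUSG00000056290) at chr19:11443553-11467055. Their promoter windows, from the same RefSeq table and build, had the largest share of identical positions, gaps counted, of the member pairs aligned. Ms4a6d had no window, and the longest shared run of any pair was that of Ms4a6b and Ms4a6c, at 48 bases. The windows of Ms4a4b and Ms4a4c are shown for that share, while the levels of both genes were far apart. Capitals mark the longest identical run, of 20 bases.
Ms4a4b, chr19:11443308-11443607: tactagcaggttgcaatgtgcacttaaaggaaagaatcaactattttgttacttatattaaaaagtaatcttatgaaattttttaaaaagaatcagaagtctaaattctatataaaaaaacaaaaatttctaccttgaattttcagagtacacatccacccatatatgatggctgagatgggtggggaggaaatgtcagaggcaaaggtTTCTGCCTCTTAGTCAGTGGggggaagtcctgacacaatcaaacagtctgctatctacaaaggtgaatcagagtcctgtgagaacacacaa
Ms4a4c, chr19:11407411-11407710: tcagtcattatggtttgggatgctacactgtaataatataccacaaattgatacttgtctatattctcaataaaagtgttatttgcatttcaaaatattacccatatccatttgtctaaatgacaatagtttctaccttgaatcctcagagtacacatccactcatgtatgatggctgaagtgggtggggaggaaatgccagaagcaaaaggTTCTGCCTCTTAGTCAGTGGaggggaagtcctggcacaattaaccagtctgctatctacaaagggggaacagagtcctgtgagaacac
In a global alignment, 73.8% of positions were identical (237 of 321). Of the transcript stretches of 75 bases, 3.78% of those of Ms4a4c were shared, all with Ms4a4b, and 1.18% of those of Ms4a4b were shared with other genes.

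Ms4a4c changed more than any other member called DE with all libraries in the fit. It was at 106, 109 and 68.9 FPKM at day 5, 112 and 36.6 FPKM at day 14, and 21.4 and 15.6 FPKM at day 28. Day 14 replicate 1 was above all day 5 libraries, day 14 replicate 2 below all of them, and day 28 lower still. The mean fell 5.12-fold from day 5 (94.8 ± 22.5, SD, n = 3) to day 28 (18.5 ± 4.08, n = 2), a log2 fold change of -2.34 (SE 0.43, edgeR adjusted p = 0.00885). The call ended without day 28 replicate 1 (-2.59, edgeR adjusted p = 0.072) or replicate 2 (-2.14, edgeR adjusted p = 0.0739). The ratio of Ms4a4c to Ms4a6c within a library went from 0.371, 0.383 and 0.296 at day 5 over 0.394 and 0.198 at day 14 to 0.143 and 0.115 at day 28, so Ms4a4c lost share within the family, from 6.1% to 8.3% of the summed FPKM at day 5 to 3.4% and 2.9% at day 28. That difference in ratio was not tested.

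Ms4a4b, known from T cells, was close to the limit of what these libraries resolve. It was at 2.14, 1.425 and 2.50 FPKM at day 5 (55, 31 and 58 fragments), 2.04 and 1.10 FPKM at day 14 (39 and 26 fragments), and 0.245 and 0.934 FPKM at day 28 (10 and 19 fragments). Both day 28 values were under every other library, and their ratio to each other was wider than in any other member. The log2 fold change from day 5 to day 28 was -1.86 (SE 0.63) and missed the threshold with edgeR (adjusted p = 0.0777), while DESeq2, limma at both pseudocounts and edgeR with no expression filter each called it. Its size rested on the day 28 libraries, at -1.10 without replicate 1 (adjusted p = 0.333 with edgeR) and -3.01 without replicate 2 (adjusted p = 0.0477 with edgeR).

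Because Ms4a4b is known from lymphocytes, the T cell markers were read beside it. Of 9 T cell genes, summed FPKM was 7.68, 7.69 and 6.94 at day 5, 18.4 and 21.0 at day 14, and 18.5 and 17.9 at day 28, most of it Cd2 and Cd4 in every library. Both of these rose between days 5 and 28 (log2 fold changes of 1.56 and 0.96, edgeR adjusted p = 0.036 and 0.0471), calls that ended without any 1 of the day 5 or day 28 libraries (adjusted p of up to 0.212 and 0.245 with edgeR). Cd4 was also called higher at day 14 vs day 5 (log2 fold change 1.83, edgeR adjusted p = 0.0157), a call that ended without day 5 replicate 2 or 3 (edgeR adjusted p of up to 0.0669). The defining marker Cd3e, a gene of the sort's exclusion markers, stayed between 0.0369 and 0.18 FPKM, and Cd3d between 0.0229 and 0.395 FPKM, and neither passed the expression filter. The 5 NK cell genes summed to between 1.88 and 5.41 FPKM, most of it Klrk1, and Ncr1 was at 0 in 4 of the libraries and at most 0.228 FPKM.

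Ms4a7 (ENSMUSG00000024672, chr19:11321039-11336146, minus strand) was the second most abundant member at day 5. Its FPKM was 358, 300.5 and 285 at day 5, 311 and 184 at day 14, and 137 and 114 at day 28. The mean fell 2.5-fold, from 315 ± 38.4 (SD, n = 3) to 126 ± 16.2 (n = 2), with a log2 fold change of -1.31 (SE 0.22, edgeR adjusted p = 0.00604), the lowest adjusted p among the members. The call ended without day 28 replicate 2 (edgeR adjusted p = 0.0526). None of its 75-base stretches occurred in another gene.

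Ms4a8a (ENSMUSG00000024730, chr19:11067471-11081102, minus strand), which has been linked to alternatively activated macrophages, was the second lowest of the members in level. It was at 21.15, 22.7 and 23.4 FPKM at day 5, 16.2 and 10.9 FPKM at day 14, and 15.2 and 8.73 FPKM at day 28. Relative to its mean it had the tightest day 5 libraries of the members (22.4 ± 1.13, SD, n = 3), both day 14 libraries were below them, as in Ms4a6d, and days 14 and 28 overlapped. The log2 fold change from day 5 was -0.72 (SE 0.25, edgeR adjusted p = 0.122) at day 14 and -0.87 (SE 0.25, edgeR adjusted p = 0.0445) at day 28, and leaving out any 1 of the day 5 libraries or day 28 replicate 2 ended the day 28 call.

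The order of the levels was Ms4a6d, Ms4a7, Ms4a6c, Ms4a6b, Ms4a4c, Ms4a8a and Ms4a4b at days 5 and 14. At day 5 the libraries of Ms4a7 and Ms4a6c overlapped, as did those of Ms4a6b and Ms4a4c, and the other neighbours in that order did not. At day 14 Ms4a6d and Ms4a7 overlapped as well. At day 28 the mean of Ms4a6c (143 FPKM) was above that of Ms4a7 (126 FPKM), with overlapping libraries, and Ms4a6b and Ms4a4c no longer overlapped. Ms4a6d held between 32.8% and 39.4% of the summed FPKM in every library.

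Comparing day 14 with day 5, which asks what changed in the early to middle phase of the response, 0 of the 7 members were DE (adjusted p under 0.05 with edgeR), beside 4.78% of all genes tested. All 7 log2 fold changes were below 0, with a median of -0.34 beside 0.03 over all genes tested, and 2 members, Ms4a6d and Ms4a8a, had an unadjusted p under 0.05, as had 24% of all genes. In these 2 members both day 14 libraries were below all day 5 libraries, the case for 21.4% of all genes. DESeq2 and limma also called 0, and edgeR with no expression filter called Ms4a8a, while the genes called in all went from 614 to 1429. The result rested on day 14 replicate 1: without it, 4 members were DE (Ms4a4c, Ms4a6d, Ms4a7 and Ms4a8a), all lower, in a fit that assumes the 1 remaining day 14 library to vary like the other groups. Calls rose over all genes in that fit as well, from 614 to 1728. Without day 14 replicate 2 none was DE, and the log2 fold changes of Ms4a4b, Ms4a4c, Ms4a6b and Ms4a6c turned to 0.01, 0.25, 0.16 and 0.12, under the same assumption.

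Comparing day 28 with day 14, the middle with the late phase, 0 of 7 members were DE with edgeR, beside 0.0622% of all genes tested. The median log2 fold change of the members was -0.84, and 0.01 over all genes. An unadjusted p under 0.05 was reached by 5 members (Ms4a4c, Ms4a6b, Ms4a6c, Ms4a6d and Ms4a7) and by 12.2% of all genes. Both day 28 libraries were below both day 14 libraries in 6 members, all but Ms4a8a, and in 19.7% of all genes. Ms4a4c had a log2 fold change of -1.99 (SE 0.44, edgeR adjusted p = 0.123), which was -0.98 without day 14 replicate 1 and -2.58 without day 14 replicate 2. It was the widest of the members with all libraries, but Ms4a4b was wider without day 14 replicate 1 (-0.99) and without day 28 replicate 2 (-2.65). DESeq2 called 4 members, Ms4a4c, Ms4a6b, Ms4a6c and Ms4a7, as did edgeR with no expression filter, and limma called 0. Over all genes these settings called 332, 390 and 0, beside 8 with edgeR as filtered. Without day 14 replicate 2, 5 members and 629 genes in all were DE with edgeR, again with 1 day 14 library assumed to vary like the other groups. Without any other library 0 members were DE. The log2 fold change of Ms4a8a, -0.15 in this comparison, turned to 0.15 without day 14 replicate 1 and to 0.17 without day 28 replicate 2.

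Comparing day 28 with day 5, the ends of the time course, 6 of the 7 members were DE, beside 15.2% of all genes tested. All 6 were lower, beside 7.51% of all genes called lower. The 6 were Ms4a4c, Ms4a6b, Ms4a6c, Ms4a6d, Ms4a7 and Ms4a8a. The median log2 fold change of the 7 members was -1.04, beside 0.03 over all genes. Each of the 7 had both day 28 libraries below all day 5 libraries, which held for 25.6% of all genes tested. A stringent DE call, which also needs a 2-fold difference of mean FPKM and a mean FPKM of at least 5 on 1 of the days, was met by 3 members (Ms4a4c, Ms4a6d and Ms4a7), beside 3.52% of all genes. Fitted without day 28 replicate 1, 3 members were DE (Ms4a6d, Ms4a7 and Ms4a8a), and without day 28 replicate 2 only Ms4a4b was, beside 452 and 1012 genes called in all against 1960 with every library. In those fits the 1 remaining library is assumed to vary like the other groups. Without day 5 replicate 1 or 2, 4 members were DE, beside 820 and 916 genes in all. This comparison shares its libraries with the other 2, so their values are not separate evidence.

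**Figure D2:**
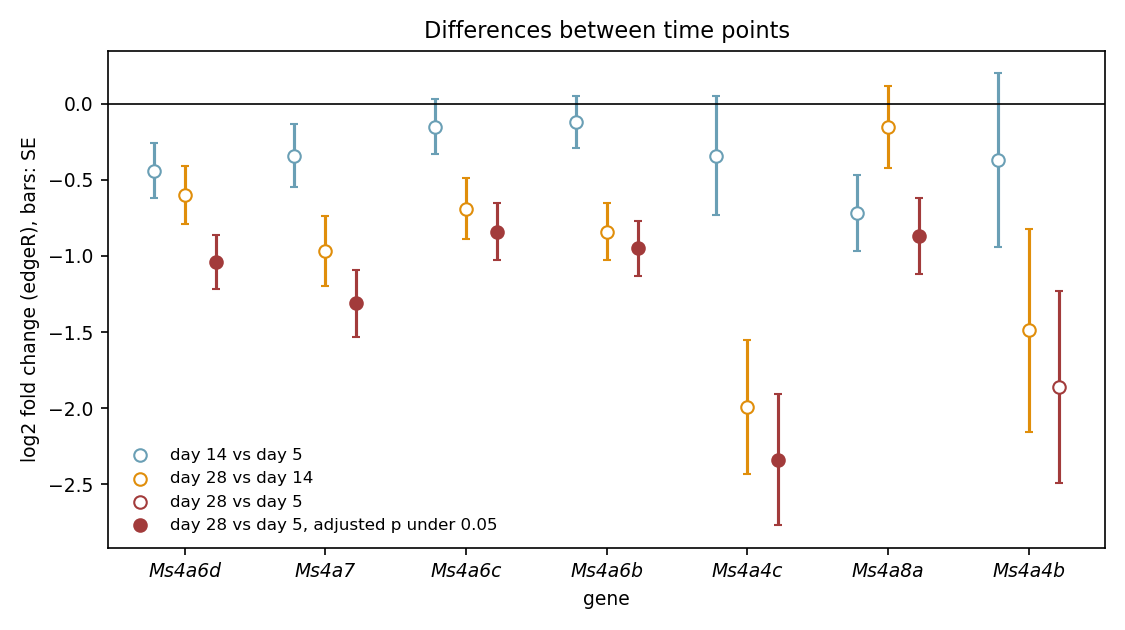
Log2 fold changes of the 7 Ms4a genes from edgeR for the 3 comparisons of time points, with SE as bars; filled points have an adjusted p under 0.05. The day 28 vs day 5 points run from -0.84 for Ms4a6c to -2.34 for Ms4a4c, and 6 of the 7 are filled.

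Most other Ms4a genes were at or near 0. The cluster runs over 679 kb, from Ms4a10 to Ms4a3 (chr19:10962293-11640851), and the 7 members were spread over 537 kb of it. Of 14 other Ms4a genes listed, 9 were in the table. Of these, 5 (Ms4a3, Ms4a5, Ms4a10, Ms4a15 and Ms4a18) had 0 fragments in every library, which allows up to 3 fragments in each, counting error only. Ms4a4d reached 0.481 FPKM (11 fragments) at most, Ms4a1 0.179 FPKM, Ms4a13 0.245 FPKM and Ms4a2 0.0211 FPKM. None of the 9 passed the expression filter. Ms4a6e, Ms4a8, Ms4a12, Ms4a14 and Ms4a19 were not analysed here.

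The more distant relatives Tmem176a and Tmem176b were read beside the members, and the difference from the members was not tested. Tmem176b was at 158, 93.2 and 109 FPKM at day 5, 223 and 150 FPKM at day 14, and 124 and 152 FPKM at day 28, so its days overlapped. Its log2 fold change from day 5 to day 28 was 0.24 (SE 0.23, edgeR adjusted p = 0.51), and that of Tmem176a 0.27 (SE 0.21, edgeR adjusted p = 0.397). Tmem176a was at 70.7, 42.5 and 49.2 FPKM at day 5, 94.3 and 71.0 FPKM at day 14, and 62.0 and 68.0 FPKM at day 28. Both its day 14 libraries were thus above all of day 5. At day 14 vs day 5 neither gene was called (log2 fold changes of 0.62 for Tmem176a and 0.63 for Tmem176b, edgeR adjusted p = 0.111 and 0.133).

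The genes next to the cluster were read for comparison, and the difference between them and the members was not tested. The 3 tested genes nearest to each end were Tmem109, Prpf19 and Ccdc86 on 1 side and Mrpl16, Stx3 and Patl1 on the other. None of these 6 was DE in any of the 3 comparisons with edgeR on all 7 filtered libraries. At an unadjusted p under 0.05, 2 differed at day 14 vs day 5, 0 at day 28 vs day 14 and 3 at day 28 vs day 5. The shares of all genes tested under that p were 24%, 12.2% and 31.5% in the same order. At day 14 vs day 5, Stx3 was called lower by DESeq2 (adjusted p = 0.0492) and by edgeR with no expression filter (adjusted p = 0.0264), and limma called none. With only the 2 days compared, Stx3 and Patl1 were called lower at day 28 vs day 5 (edgeR adjusted p = 0.0375 and 0.0436). Stx3 and Patl1 were called lower at day 14 vs day 5 without day 14 replicate 1 (edgeR adjusted p = 0.00925 and 0.0126), and at day 28 vs day 5 without either day 14 library (edgeR adjusted p of 0.0352 to 0.0406). Their log2 fold changes from day 5 to day 28 ran from -0.47 (Stx3) to 0.47 (Mrpl16), with a median of -0.11, whereas those of the members ran from -0.84 down to -2.34. Inside the cluster, outside the family, 2 genes were tested, AW112010 and Gm8369, both read after their values were seen. AW112010 was at 35.8, 19.04 and 24.4 FPKM at day 5, 22.7 and 12.7 FPKM at day 14, and 10.3 and 8.87 FPKM at day 28, and fell by 1.44 on the log2 scale (SE 0.32, edgeR adjusted p = 0.0186), a call that ended without day 5 replicate 1 or either day 28 library (edgeR adjusted p of up to 0.11). Gm8369, at 0.0778 to 0.49 FPKM with 2 to 20 fragments, was not called (edgeR adjusted p = 0.998).

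**Figure D3:**
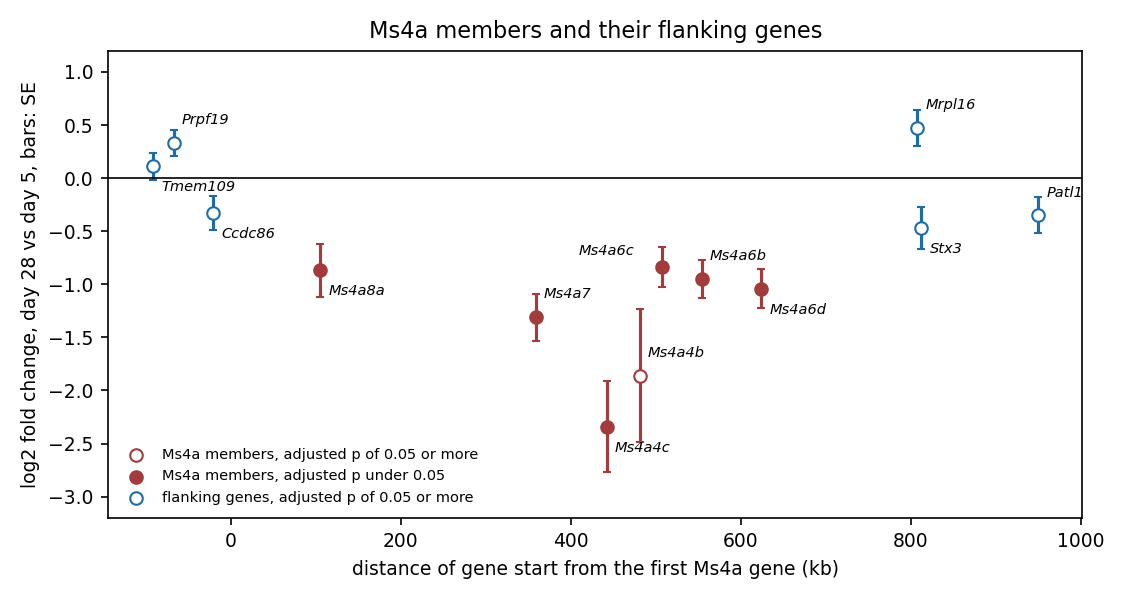
Log2 fold change from day 5 to day 28 (edgeR, SE as bars) against the distance of each gene's start from the first Ms4a gene in kb, for the 7 members (red) and the 3 tested genes on each side of the cluster (blue); filled points have an adjusted p under 0.05. The flanking genes lie between -0.47 and 0.47 and the members between -0.84 and -2.34.

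For the 6 members with a mean FPKM of at least 5, all but Ms4a4b, the genes with the most similar pattern were found by Pearson's r of log2(FPKM + 1) over the 7 libraries, among 7607 genes outside the family with a mean FPKM of at least 5. It is a description, since the points share their libraries and 3 time points. For Ms4a4c they were Zbp1, a sensor of nucleic acids (r = 0.997), the GTPase gene Irgm1 (0.996) and the ubiquitin ligase gene Rnf114 (0.996). For Ms4a6c they were Zbp1 (0.995), Irgm1 (0.994) and the oligoadenylate synthetase gene Oas3 (0.993), and for Ms4a6b they were Oas1a (0.998), the protease gene Usp18 (0.997) and the transcription factor gene Irf7 (0.995). For Ms4a6d they were Herc6 (0.997), Azi2 (0.997) and Trim30d (0.996). For Ms4a7 they were the complement gene Cfb (0.997), the monocyte marker Plac8 (0.996) and Arhgap18 (0.994). For Ms4a8a they were Tifa (0.993), Hn1l (0.992) and Rnf115 (0.992).

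These 16 genes were chosen for their likeness over the same libraries, so their direction is largely set by the choice. Irf7 was at 609.5, 522 and 433 FPKM at day 5, 626 and 269 FPKM at day 14, and 105 and 91.5 FPKM at day 28. Zbp1 was at 107, 124 and 80.9 FPKM at day 5, 116 and 53.7 FPKM at day 14, and 32.8 and 24.4 FPKM at day 28. As in Ms4a4c and Ms4a6b, day 5 replicate 3 was the lowest of day 5 and day 14 replicate 1 stood with day 5 or above it. Such likeness was common: between 186 genes (for Ms4a8a) and 534 genes (for Ms4a6d) had an r over 0.9. Among the members, r was 0.999 between Ms4a4c and Ms4a6c, 0.994 between Ms4a6b and Ms4a6c, from 0.544 to 0.881 between Ms4a8a and the others, and from 0.544 to 0.824 between Ms4a4b and the others, over the same 7 libraries.

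**Figure D4:**
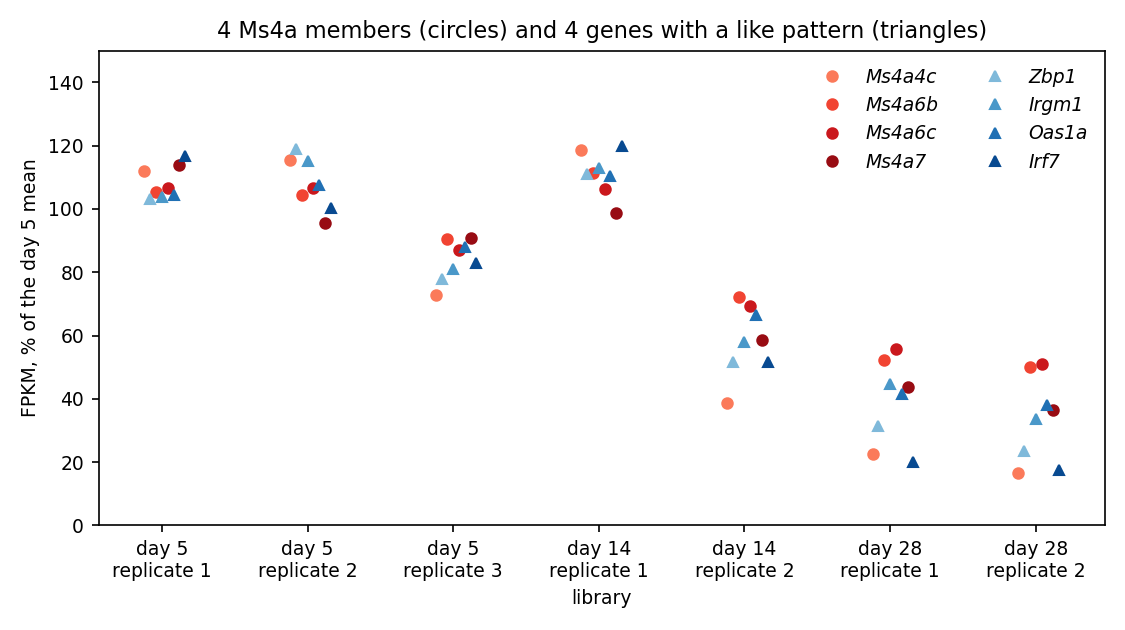
FPKM in each library as a percentage of the gene's day 5 mean, for 4 Ms4a members (circles) and 4 of the genes with a like pattern (triangles). Day 14 replicate 1 stands with the day 5 libraries, day 14 replicate 2 between days, and both day 28 libraries are lowest, at 22.6% and 16.5% for Ms4a4c.

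The promoter windows of the members were searched on both strands for motifs chosen after the windows had been seen. The table held 8 windows for 7 of the 8 listed genes, with Ms4a4a among them and 2 windows for Ms4a7; Ms4a6d has no entry. The letters GAAANNGAA, a pair of binding cores of interferon regulatory factors, were in 4 windows, those of Ms4a6b and Ms4a6c and both of Ms4a7, and in 8.56% of the 32851 windows of all genes. In Ms4a6b and Ms4a6c it read GAAAGTGAA, starting at base 45 and base 118 of the runs printed above, ahead of the capitals. The motifs TTCNNNGAA (STAT), GAGGAAGT (PU.1) and TTGCNNAA (C/EBP) were in 0 of the 8 windows, and in 8.3%, 3.2% and 10.8% of all windows. A match is a description of letters in the window only.

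Partners with which Ms4a proteins are known to sit or signal were read from a list of 12 genes, 10 of which were tested. From day 5 to day 28, 3 were called higher, beside 7.74% of all genes, and 2 were called lower, beside 7.51% of all genes. Clec7a, which encodes the fungal glucan receptor dectin-1, rose most, from 44.0, 56.6 and 49.0 FPKM at day 5 over 104 and 126 FPKM at day 14 and up to 265 and 174 FPKM at day 28 (log2 fold change 2.15, SE 0.19, edgeR adjusted p = 0.000641). Both its day 14 libraries were above day 5, and it was also DE at day 14 vs day 5 (log2 fold change 1.22, SE 0.19, edgeR adjusted p = 0.0179), the 1 partner that was. That earlier call held without either day 14 library (log2 fold changes of 1.36 and 1.06) and ended without day 5 replicate 1 or 3 (edgeR adjusted p = 0.0665 and 0.0676).

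The tetraspanin gene Cd63 rose by a log2 fold change of 0.86 (SE 0.13, edgeR adjusted p = 0.00357), from 705, 610 and 605 FPKM at day 5 to 1232 and 1067 FPKM at day 28. Trem2, a lipid receptor gene, was at 394, 399 and 406 FPKM at day 5 and at 493 and 536.5 FPKM at day 28 (log2 fold change 0.38, SE 0.11, edgeR adjusted p = 0.0429). The Fc receptor chain gene Fcer1g and the kinase gene Lyn fell (log2 fold changes of -0.58 and -0.62, edgeR adjusted p = 0.0264 and 0.0116). The calls of Clec7a and Cd63 from day 5 to day 28 held without each library in turn. Those of Fcer1g and Trem2 ended without any 1 of the day 5 or day 28 libraries, and that of Lyn without day 5 replicate 2 or either day 28 library (edgeR adjusted p of up to 0.125, 0.15 and 0.0733). Tyrobp, Syk, Card9, Plcg2 and Kit did not pass the test. Tyrobp, the most abundant of the list in the libraries of days 5 and 14 but below Cd63 at day 28, was at 1240, 1123 and 1082 FPKM at day 5 and at 1041 and 1002 FPKM at day 28. Fcer1a was at 0 in all libraries, and Tnfrsf18 reached 0.558 FPKM at most. The median log2 fold change of the 10 partners was -0.18.

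Monocyte markers moved in both directions. Of 6 monocyte genes, all tested, 3 were called lower at day 28 than at day 5 (Ly6c1, Ly6c2 and Plac8) and 2 higher (Ccr2 and Cx3cr1), with a median log2 fold change of -1.15. Among all genes tested, 7.51% were called lower and 7.74% higher. Nr4a1 was not called (log2 fold change 0.39, edgeR adjusted p = 0.356). The call of Cx3cr1 held without each library in turn, and it was also called higher at day 14 vs day 5 (log2 fold change 1.92, edgeR adjusted p = 0.0189), which ended without day 5 replicate 1 or 3 (edgeR adjusted p of up to 0.0717). Those of Plac8 and Ly6c2 ended without either day 28 library, that of Ly6c2 also without day 5 replicate 1, that of Ccr2 without any 1 of the day 5 libraries or day 28 replicate 1, and that of Ly6c1 without any 1 of the day 5 or day 28 libraries (edgeR adjusted p of up to 0.208 for Ccr2). Ly6c2 was at 107, 72.8 and 57.1 FPKM at day 5, 114 and 18.2 FPKM at day 14, and 12.2 and 8.31 FPKM at day 28. As in Ms4a4c, day 14 replicate 1 was above all of day 5 and replicate 2 below. At day 14 Ly6c2 stood at 144.9% and 23.1% of its day 5 mean, beside 118.5% and 38.6% for Ms4a4c. Cx3cr1 went from 4.47, 7.15 and 3.56 FPKM at day 5 to 44.1 and 36.3 FPKM at day 28. The 6 genes summed to 705, 538 and 567 FPKM at day 5, 668 and 481.5 FPKM at day 14, and 401 and 416 FPKM at day 28. Plac8 was the most abundant of them in each day 5 library (326, 210 and 199 FPKM) and in day 14 replicate 1, Nr4a1 in replicate 2 of days 14 and 28, and Ccr2 in day 28 replicate 1. The part of monocytes in the fall of the Ms4a genes was not tested.

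Macrophage markers were present in every library, the lowest of them Cd163 at 5.8 FPKM in day 14 replicate 2. Of 10 macrophage genes tested, 4 fell between days 5 and 28 (Emr1, which encodes F4/80, Fcgr1, Cd14 and Mrc1) and 0 rose, with edgeR, and the median log2 fold change was -0.59. Over all genes tested, 7.51% were called lower and 7.74% higher in that comparison. Emr1 fell by a log2 fold change of -1.01 (SE 0.17, edgeR adjusted p = 0.0065), close in size to Ms4a6d, and Fcgr1 by -1.73 (SE 0.22, edgeR adjusted p = 0.0021). The call of Fcgr1 held without each library in turn, that of Emr1 ended without day 28 replicate 1 (edgeR adjusted p = 0.0667), that of Cd14 without day 5 replicate 1 or day 28 replicate 1, and that of Mrc1 without any 1 of the day 5 or day 28 libraries (edgeR adjusted p of up to 0.111 and 0.204). Cd14 was also called lower at day 14 vs day 5 (log2 fold change -0.75, edgeR adjusted p = 0.0357), which ended without any 1 of the day 5 libraries or day 14 replicate 2 (edgeR adjusted p of up to 0.112). Csf1r was at 434, 411 and 406.5 FPKM at day 5 and at 423 and 470.3 FPKM at day 28. The list summed to between 16150 and 22020 FPKM, most of it Lyz2, which was at 10680 FPKM or more in every library. The part of these shifts in the fall of the Ms4a genes was not tested.

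Markers of cells in which other Ms4a genes are used were mostly near 0, with Cd79b as an exception. The 4 B cell genes summed to 4.42 to 10.7 FPKM, nearly all Cd79b, which was at 4.38 to 10.3 FPKM and was not called (edgeR adjusted p = 0.126 from day 5 to day 28), with Pax5 at 0 in 6 libraries and 0.0442 FPKM in day 14 replicate 2. The 7 mast cell or basophil genes summed to less than 1 FPKM in each library, with Fcer1a and Mcpt8 at 0 in all. The 4 eosinophil genes summed to 0.616 to 2.3 FPKM, most of it Siglec5, and Schwann cell genes to at most 0.515 FPKM. Siglec5, which encodes the sort's exclusion marker Siglec F, was called higher at day 28 than at day 5 (log2 fold change 1.85, edgeR adjusted p = 0.0105), at 1.91 FPKM or less, a call that ended without either day 28 library (edgeR adjusted p of up to 0.057). The part of these cells in the Ms4a values was not tested.

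Other lists changed in their own ways. Of 6 dendritic cell genes, summed FPKM went from 18.98, 31.1 and 14.6 at day 5 over 58.8 and 181 at day 14 to 313 and 297 at day 28. Itgax, which encodes CD11c, was 6.41, 18.3 and 6.55 FPKM of this at day 5, beside 7.94, 8.27 and 3.73 FPKM of Ccr7, and nearly all of it in day 14 replicate 2 and at day 28. Both were called higher at day 28 than at day 5. The call of Itgax (log2 fold change 4.77, SE 0.66, edgeR adjusted p = 0.00291) held without each library in turn, and that of Ccr7 (log2 fold change 1.43, edgeR adjusted p = 0.04) ended without any 1 of the day 5 or day 28 libraries (edgeR adjusted p of up to 0.236). Itgax was also called higher at day 14 vs day 5 (log2 fold change 3.31, edgeR adjusted p = 0.0253), which held only without day 5 replicate 2 or day 14 replicate 1 among the fits with 1 library left out (edgeR adjusted p of up to 0.0964), at 1.72 without day 14 replicate 2. Day 14 replicate 2 again lay nearer to day 28. The 7 neutrophil genes in the table summed to 239, 266 and 275 FPKM at day 5, 495 and 516 FPKM at day 14, and 252 and 103 FPKM at day 28, nearly all S100a9 and S100a8, with Elane at 0. The 5 fibroblast genes summed to 69.4, 33.0 and 26.6 FPKM at day 5, 209 and 75.6 FPKM at day 14, and 32.6 and 54.0 FPKM at day 28, most of it Col1a1 and Col3a1. Of the 5, Col1a2 was called higher at day 14 vs day 5 (log2 fold change 1.86, edgeR adjusted p = 0.035), which held without day 14 replicate 1 (1.02) or replicate 2 (2.39) and ended without any 1 of the others (edgeR adjusted p of up to 0.115). The 4 endothelial genes summed to 26.2, 14.6 and 20.7 FPKM at day 5, 13.4 and 7.24 FPKM at day 14, and 6.49 and 3.66 FPKM at day 28, where Kdr and Pecam1 were called lower and Tek, at 0.267 FPKM or less, higher. The call of Kdr held without each library in turn, that of Pecam1 ended without day 28 replicate 2 (edgeR adjusted p = 0.0832), and that of Tek without day 5 replicate 2 or 3 or day 28 replicate 1 (edgeR adjusted p of up to 0.175). The sort excluded cells positive for Ly6G, a granulocyte marker, and Thy1.2, used against fibroblasts, and its antibodies covered CD31, the endothelial protein that Pecam1 encodes. The part of these cells in the Ms4a values was not tested.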

How the data were processed

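Single-end RNASeq reads of sorted macrophages were trimmed, mapped and quantified by the authors, whose processing notes name cutadapt 1.8, TopHat2 2.0.13, Cuffdiff 2.2.1 and the build mm10. The authors deposited 3 values for each gene and library: the expected counts of fragments, a scaled signal, which is those fragments times 1 factor per library, and FPKM, computed from the scaled signal and the transcript length. How reads that map to several genes were shared is not given in the sources used here.

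Expected counts (0.95% not whole, tolerance 1e-06) were rounded. The test was edgeR's quasi-likelihood F test (edgeR 4.0.16, R 4.3.3) after TMM scaling and an expression filter by day, with all 7 libraries in 1 fit and day as the only factor, and Benjamini-Hochberg adjustment over all 12858 genes within each comparison. SE are approximate, as the log2 fold change over the root of F. Other settings used DESeq2 1.42.0, RLE or cuffdiff factors, no filter, limma 3.58.1 on log2(FPKM + 1) and log2(FPKM + 0.1), the 2 days compared alone, the replicate number as a block, each library left out in turn, an adjusted p under 0.01, TMM-scaled CPM for levels and Spearman's rho for likeness. Named genes were the members, other Ms4a genes, partners, cell type markers, the 3 tested genes nearest each end of the cluster and the 3 genes most like each member with a mean FPKM of at least 5. A marker gene of the monocyte list and 1 of the B cell list are not reported here. The members and lists were chosen with earlier results of these data known. Coordinates are from GENCODE M21 on GRCm38, transcripts likewise, promoters from RefSeq. Python 3.11.15, pandas 2.3.3, numpy 2.4.6, scipy 1.17.1, Biopython 1.88 and matplotlib 3.10.9 were used for the rest.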

Additional observations from a re-analysis of the deposited data

How the results depend on the processing

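With DESeq2, other scaling, no filter, limma, the 2 days alone and the replicate block, each log2 fold change of the 7 members kept its direction in all 3 comparisons, and all 112 values from day 28 vs day 5, libraries left out included, were below 0. The number of members called at day 14 vs day 5, 0, was 1 with no filter and ranged from 0 to 4 with 1 library left out; the log2 fold changes of Ms4a4b, Ms4a4c, Ms4a6b and Ms4a6c ran from -0.87, -1.36, -0.45 and -0.49 (without day 14 replicate 1) to 0.01, 0.25, 0.16 and 0.12 (without day 14 replicate 2). At day 28 vs day 14, 0 became 4 with DESeq2 and 4 with no filter, and ranged from 0 to 5 with 1 library left out; Ms4a8a ran from -0.63 without day 28 replicate 1 to 0.17 without day 28 replicate 2, and was 0.15 without day 14 replicate 1. At day 28 vs day 5, 6 ranged from 1 to 6 with 1 library left out, and was 7 with DESeq2, no filter and limma, and 4 at an adjusted p under 0.01. The cause of these shifts was not tested, beyond fewer libraries in the fits with 1 left out. Over all genes, the 614 called at day 14 vs day 5 were 1366 with DESeq2, 1429 with no filter, 252 and 277 with limma (pseudocounts 1 and 0.1), 315 with the 2 days alone, 24 at an adjusted p under 0.01, and 52 to 1728 with 1 library left out. The 8 at day 28 vs day 14 were 332 with DESeq2, 390 with no filter, 0 with limma, with the 2 days alone and at an adjusted p under 0.01, and 0 to 629 with 1 library left out. The 1960 at day 28 vs day 5 were 2485 with DESeq2, 2466 with no filter, 1802 and 1744 with limma, 2778 with the 2 days alone, 597 at an adjusted p under 0.01 and 452 to 2746 with 1 library left out. With the replicate number as a block, 0, 0 and 5 members and 6, 0 and 735 genes were called in the same order; Ms4a8a was the member lost. Whether the numbers pair these libraries cannot be told from so few of them. Deviations from the day means over 7556 genes correlated at 0.403 and 0.058 in same-numbered libraries of days 5 and 14. The values were -0.049 and 0.029 for days 5 and 28, over 2 pairs each. Where a day has 2 libraries, their deviations from its mean mirror each other. For days 14 and 28 the value was -0.138, so a block that pairs day 28 the other way was added after seeing the data, and called 0, 0 and 5 members and 357, 63 and 1579 genes. The ratio of day 28 to day 5 levels of the 7 members moved by less than the spread between libraries with CPM in place of FPKM, for example from 0.195 to 0.197 for Ms4a4c. With Spearman's rho, between 0 and 1 of the 3 genes named for each of 6 members, all but Ms4a4b, were among its 3 most alike. Leaving out 1 library was extended to the other named genes, and all settings to the 6 flanking genes, after seeing the data. Fragments limit Ms4a4b most, with 10 in day 28 replicate 1.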
